A study of Homo sapiens with 36 samples.

Results

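MicroRNA host transcripts are the long RNAs from which microRNAs (miRNAs) are cut. They were followed in the human colon carcinoma line HCT116, with and without auxin, which removes the ribonuclease DIS3 from cells that carry it with a degron. A host was any gene whose current symbol starts with MIR and ends in HG and whose counts, summed over the 24 total RNA libraries, reached 100. Of 83 genes with such a symbol, 48 met this rule, out of 59607 features in those tables. The other 35 fell below it and 5 of them had no count. Just inside the threshold were MIR4280HG with 105 counts, MIR497HG with 123 and MIR2117HG with 143, and just outside were MIR3171HG with 91, MIR646HG with 81 and MIR1302-9HG with 78.

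The groups were DIS3-AID cells given 500 uM auxin for 1 h, DIS3-AID cells without auxin, control cells given the same auxin, and control cells without auxin. The control line expresses TIR1, the plant receptor that hands degron-tagged proteins to the proteasome when auxin is present. DIS3-AID cells are a CRISPR clone in which DIS3 carries the auxin-inducible degron (AID), so differences between the lines cannot be told apart from differences between clones. RNA came from 3 preparations: total RNA of the cytoplasm, total RNA of the chromatin fraction and polyA-selected RNA of the cytoplasm, with 3 libraries per group and 36 in all. Since the cytoplasm triplicates are described as technical, a p-value here speaks of the spread between libraries and not between cultures.

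A miRNA host is transcribed like other long RNAs. In the nucleus the Microprocessor (DROSHA with DGCR8) cuts a hairpin out of it, XPO5 exports the hairpin and DICER1 trims it to the mature miRNA that an Argonaute protein carries. The spliced or cleaved remainder of the host is a long non-coding RNA, and the RNA exosome, of which DIS3 is a catalytic subunit, is known to degrade many such RNAs. The seed, the stretch near the start of a miRNA that pairs with its targets, defines its family.

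The hosts differed widely in architecture. Their spans ran from 949 to 838232 bases on hg38, with a median of 32208, and 16 were shorter than 10 kb while 16 were longer than 100 kb. RefSeq's table for GRCh38.p14 places 62 miRNA genes inside 38 of the hosts, 24 of them in host exons and 38 in introns, with 104 mature names and 89 different seeds. MIRLET7A1 lies 422 bases outside MIRLET7A1HG, and MIR4280 lies 90454 bases outside MIR4280HG. The miRNAs after which MIR22HG, MIR663AHG and MIR378D2HG are named are absent from RefSeq's table as used here. GENCODE places their hairpin genes in exons of these hosts. The mature sequences that follow are written in lower case with the seed, bases 2 to 8, in capitals. They come from hosts described below, apart from miR-4500, which is shown for its shared seed and whose host was tested for the auxin response on chromatin only (0.08; edgeR adjusted p = 0.913). The first set shows a seed carried by 5 of the hosts (MIR100HG, MIR99AHG, MIRLET7BHG, MIRLET7IHG and MIR4500HG), the seed of the let-7 family, known for repressing growth genes such as RAS.
hsa-let-7a-5p: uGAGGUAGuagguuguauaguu
hsa-let-7b-5p: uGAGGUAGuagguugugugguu
hsa-let-7c-5p: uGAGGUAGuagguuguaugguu
hsa-let-7i-5p: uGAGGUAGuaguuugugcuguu
hsa-miR-4500: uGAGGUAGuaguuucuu
The second set shows 3 more seeds that recur: that of miR-181, a regulator of lymphocyte development, in MIR181A1HG and MIR181A2HG; that of miR-221 and miR-222, which repress the cell cycle inhibitor CDKN1B, both inside MIR222HG; and that of miR-100 and miR-99a, which lie in MIR100HG and MIR99AHG.
hsa-miR-181a-5p: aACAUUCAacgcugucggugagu
hsa-miR-181b-5p: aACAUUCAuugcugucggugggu
hsa-miR-221-3p: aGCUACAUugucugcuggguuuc
hsa-miR-222-3p: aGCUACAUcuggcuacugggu
hsa-miR-100-5p: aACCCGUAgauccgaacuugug
hsa-miR-99a-5p: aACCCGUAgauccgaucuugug
The third set is from other hosts among the largest changes or the known regulators described below.
hsa-miR-4453: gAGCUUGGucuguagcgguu
hsa-miR-3677-3p: cUCGUGGGcucuggccacggcc
hsa-miR-940: aAGGCAGGgcccccgcucccc
hsa-miR-130a-5p: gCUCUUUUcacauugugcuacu
hsa-miR-762: gGGGCUGGggccggggccgagc
hsa-miR-1915-3p: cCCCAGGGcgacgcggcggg
hsa-miR-193b-3p: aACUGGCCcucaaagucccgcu
hsa-miR-34a-5p: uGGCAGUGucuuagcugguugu
hsa-miR-31-5p: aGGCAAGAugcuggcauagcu

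Each library held between 59.5 and 122.6 M counts in cytoplasm total RNA, between 50.3 and 139.0 M on chromatin, and between 25.9 and 33.1 M in polyA RNA. DIS3 mRNA, which checks the line label and not the protein, averaged 45.8 ± 0.937 CPM (counts per 1 M of the scaled library; SD, n = 3) in auxin-treated and 50.1 ± 2.63 in untreated DIS3-AID cytoplasm, against 93.1 ± 3.21 in auxin-treated and 90.5 ± 2.58 in untreated control cytoplasm. Of 8 colon epithelial markers, 7 were at 1 CPM or more and VIL1 was below it. Of the 7 tested, 4 were called lower in DIS3-AID cytoplasm after auxin and 0 higher, with a median of -0.29, and the summed markers stood at 3167 to 3246 CPM in auxin-treated against 3422 to 3597 CPM in untreated DIS3-AID cytoplasm. In the cytoplasm, 4 of 4 blood markers and 4 of 5 fibroblast markers were under 1 CPM. Of the 3 endothelial markers PECAM1 and CDH5 were under 1 CPM and VWF was above it; their summed level was 2.62 to 3.09 CPM in auxin-treated against 0.823 to 1.16 CPM in untreated DIS3-AID cytoplasm. The part of these markers in the results was not tested. The nuclear RNAs MALAT1, NEAT1 and KCNQ1OT1 summed to 835 to 935 CPM in auxin-treated and 869 to 988 CPM in untreated DIS3-AID cytoplasm, which overlap. Of these, NEAT1 at 0.71 (edgeR adjusted p = 1.42e-08) and KCNQ1OT1 at 0.49 (edgeR adjusted p = 0.000297) were nevertheless called higher there, with a median of 0.49 over the 3. The medians were 0.24 on chromatin and 0.49 in polyA RNA, with 2 of 3 called higher in each. Their sums were 4112 to 5289 against 3625 to 4227 CPM on chromatin and 91.5 to 98.0 against 52.4 to 56.8 CPM in polyA RNA, and their part in the results was not tested either.

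In the cytoplasm of DIS3-AID cells, 23 of the 37 hosts that passed the filter on low counts rose after auxin and none fell. The called differences ran from 0.18 to 3.83 on the log2 scale, and 10 were above a doubling. Over all 23027 features tested, 34.3% were called, 21.1% higher and 13.2% lower, with a median difference of -0.05, against a median of 0.59 over the 37 hosts (edgeR's quasi-likelihood test, Benjamini-Hochberg adjusted p below 0.05). A host can pass the filter through the group in which it is high, so the same test was also made without that filter. Again 23 of the 48 hosts were called higher, against 5204 of 41990 features higher and 2420 lower. The 48 hosts were themselves chosen by counts that include the auxin-treated group. When libraries were scaled by their size alone, without a composition factor, the calls over all features split into 5581 higher and 681 lower, in place of 4854 and 3040, and 26 hosts were called higher. In bulk samples like these, fewer cells of a type and less RNA per cell cannot be told apart.

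MIR378D2HG (ENSG00000264448.5), a host of 949 bases on the minus strand of chromosome 8, had the largest change. It stood at 63.7, 60.9 and 61.8 CPM in the auxin-treated DIS3-AID libraries, against 4.17, 4.49 and 4.45 CPM in the untreated ones. The control libraries held 3.24, 3.07 and 3.28 CPM with auxin and 3.31, 2.81 and 2.57 CPM without. All 3 auxin-treated DIS3-AID libraries lay above all 9 others. GENCODE's hairpin gene MIR378D2 covers 98 bases of this host on the same strand, 10.3% of its exon bases, and held 6720 counts over the total RNA libraries against 22519 for the host.

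MIR5689HG (chr6:10434316-10456781, plus strand), named for miR-5689, held 2.52, 2.56 and 2.15 CPM in auxin-treated against 0.534, 0.303 and 0.324 CPM in untreated DIS3-AID cytoplasm. Its control libraries lay between 0.26 and 0.306 CPM, so the treated DIS3-AID libraries stood apart from the other 9. MIR181A2HG (chr9:124658467-124698631, plus strand), a host of miR-181a, held 2.71, 2.83 and 2.41 CPM with auxin against 0.591, 0.763 and 0.634 CPM without. Control cells had 0.568, 0.546 and 0.456 CPM of MIR181A2HG with auxin against 0.327, 0.289 and 0.334 CPM without, all 6 below the untreated DIS3-AID libraries. The differences after auxin in DIS3-AID cells, 2.62 ± 0.17 for MIR5689HG and 2.0 ± 0.13 for MIR181A2HG, followed that of MIR378D2HG, 3.83 ± 0.08 (edgeR adjusted p = 2.63e-10, 4.47e-10 and 1.77e-16).

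MIR4453HG (ENSG00000268471.6, chr4:152536264-152539263, plus strand), whose exon contains miR-4453, held 4.10, 4.11 and 3.98 CPM in auxin-treated against 1.34, 1.53 and 1.08 CPM in untreated DIS3-AID cytoplasm, a log2 difference of 1.62 ± 0.11 (SE; edgeR adjusted p = 4.56e-10). MIRLET7IHG (chr12:62602752-62622213, plus strand), the host of let-7i, held 4.74, 4.84 and 4.42 CPM against 1.61, 2.0 and 1.70 CPM, a difference of 1.40 ± 0.12 (edgeR adjusted p = 1.3e-08). In neither did treated and untreated DIS3-AID libraries overlap, and the control libraries, 1.18 to 1.35 CPM for MIR4453HG and 1.11 to 1.79 CPM for MIRLET7IHG, overlapped the untreated DIS3-AID ones. On the opposite strand of MIRLET7IHG the gene LINC01465 also rose, by 2.38 (edgeR adjusted p = 2.68e-11). Their exons share 84 bases, 1.0% of the exon bases of MIRLET7IHG, and they held 1601 and 34187 counts over the total RNA libraries. Without the counting strand, reads from stretches they share cannot be told apart. The part of such reads in the rise was not tested.

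The hosts of miR-130a, miR-3677 with miR-940, and miR-762 completed the 8 largest changes. MIR130AHG (chr11:57638024-57652790, plus strand), host of a miRNA known for its role in blood vessels, held 1.68, 1.52 and 2.11 CPM in auxin-treated against 0.863, 0.533 and 0.755 CPM in untreated DIS3-AID cytoplasm. MIR3677HG (chr16:2268155-2273418, plus strand) held 0.890, 0.696 and 0.821 CPM against 0.318, 0.363 and 0.337 CPM. MIR762HG (chr16:30875222-30895220, plus strand) held 5.14, 5.00 and 5.61 CPM against 2.60, 2.32 and 2.63 CPM. None of these groups overlapped, and the log2 differences were 1.31 ± 0.17, 1.25 ± 0.19 and 1.06 ± 0.12, with edgeR adjusted p = 6.09e-06, 3.06e-05 and 4.63e-07. Of genes whose exons overlap theirs, CLP1 at MIR130AHG differed by -0.10, RNPS1 at MIR3677HG by -0.11 and BCL7C at MIR762HG by 0.00. ENSG00000262721, also at MIR762HG, differed by -0.09, and YPEL4, also at MIR130AHG, was not tested.

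**Figure D1:**
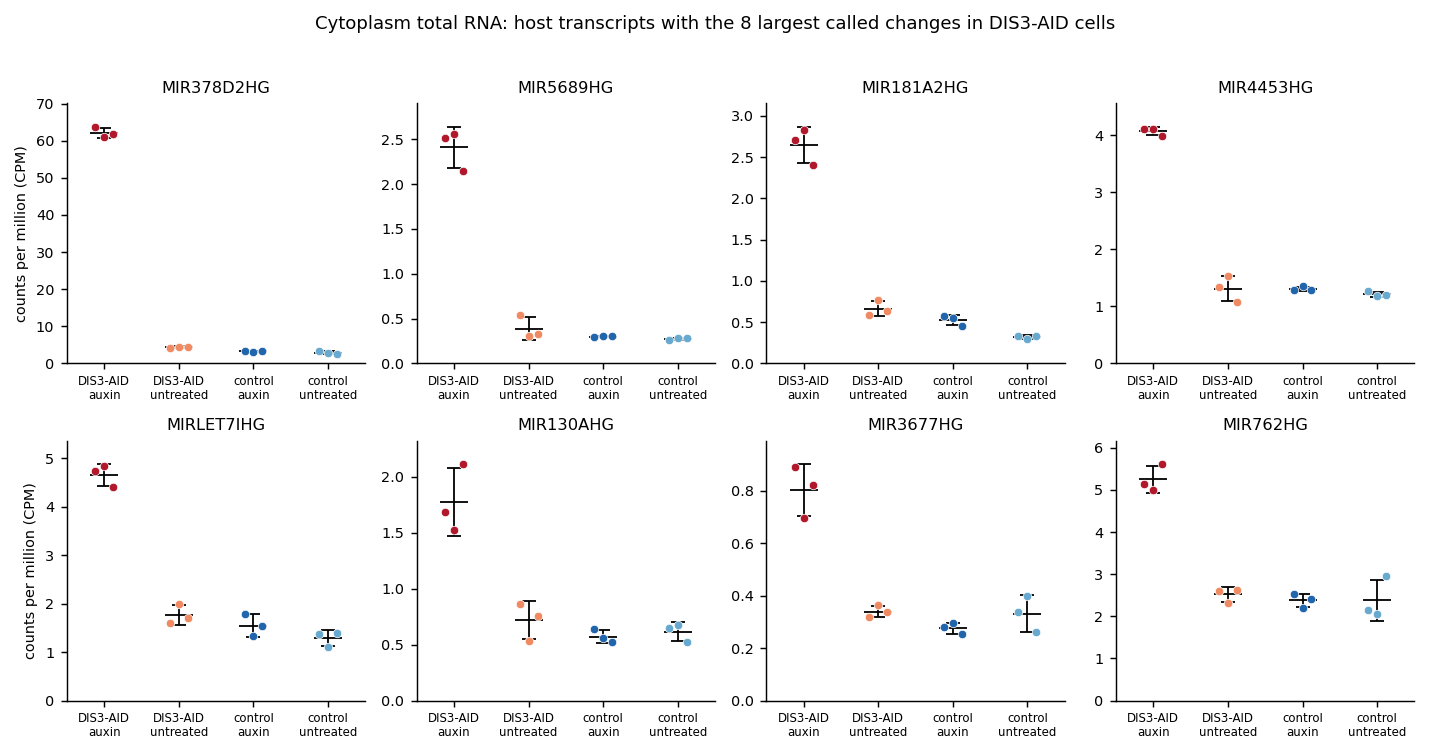
CPM of the 8 hosts with the largest called changes in cytoplasm total RNA, 1 panel per host. Points are libraries, and bars show the mean ± SD of 3 libraries in DIS3-AID cells with auxin, DIS3-AID cells without, control cells with auxin and control cells without. The auxin-treated DIS3-AID libraries lie above all others in each panel, from 60.9 to 63.7 CPM for MIR378D2HG and from 0.696 to 0.890 CPM for MIR3677HG.

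The hosts of several well-known regulators changed by smaller amounts. MIR193BHG, whose miR-193b represses the urokinase gene PLAU, held 1.95, 2.19 and 2.18 CPM in auxin-treated against 1.06, 0.968 and 1.01 CPM in untreated DIS3-AID cytoplasm (1.05 ± 0.17; edgeR adjusted p = 4.81e-05). MIR181A1HG, the host of miR-181a and miR-181b on chromosome 1, held 5.14, 4.47 and 3.81 CPM against 1.81, 2.41 and 2.40 CPM (1.03 ± 0.13; edgeR adjusted p = 2.28e-06). MIR34AHG, whose miR-34a is induced by p53, held 3.84, 3.85 and 4.48 CPM against 2.18, 1.96 and 2.39 CPM (0.90 ± 0.10; edgeR adjusted p = 8.48e-07). In all 3 hosts every treated library exceeded every untreated one.

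MIR23AHG, host of the cluster of miR-23a, miR-27a and miR-24, held 1.57, 1.46 and 1.57 CPM in auxin-treated against 0.977, 0.678 and 0.809 CPM in untreated DIS3-AID cytoplasm, a difference of 0.90 ± 0.14. Control cytoplasm held 1.19, 1.32 and 1.04 CPM of MIR23AHG with auxin against 0.848, 0.827 and 0.78 CPM without, groups that did not overlap and were not called (0.53; edgeR adjusted p = 0.311). The difference between the responses of the lines was not called either (0.37 ± 0.20; edgeR adjusted p = 0.236). MIR200CHG, whose miR-200c and miR-141 repress the ZEB factors, held 2.08, 2.2 and 2.38 CPM against 1.14, 1.48 and 1.24 CPM, a difference of 0.79 ± 0.15. MIRLET7A1HG held 1.49, 1.31 and 1.36 CPM against 0.874, 0.835 and 0.836 CPM, a difference of 0.72 ± 0.14. The edgeR adjusted p-values were 5.73e-05, 0.000523 and 0.000438, and the groups did not overlap. MIR4733HG, which lies opposite an NF1 exon, held 0.386, 0.696 and 0.471 CPM against 0.341, 0.169 and 0.324 CPM (0.85 ± 0.29; edgeR adjusted p = 0.0295). Its call rested on single libraries: without auxin replicate 2 or untreated replicate 2 the difference was 0.61 to 0.64, with edgeR adjusted p from 0.123 to 0.139.

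Of the hosts with the most counts, some rose and others did not pass. MIR100HG (chr11:122028327-122556721, minus strand), host of miR-100, miR-125b and let-7a, held 153, 149 and 135 CPM in auxin-treated against 85.9, 98.1 and 89.0 CPM in untreated DIS3-AID cytoplasm (0.68 ± 0.06; edgeR adjusted p = 1.72e-08). MIR31HG (chr9:21455642-21559669, minus strand), which holds miR-31, held 97.7, 93.7 and 82.8 CPM against 52.9, 69.0 and 60.4 CPM (0.59 ± 0.08; edgeR adjusted p = 1.73e-05). MIR222HG (chrX:45745211-45770274, minus strand) held 47.2, 44.9 and 43.6 CPM against 24, 30.2 and 27.8 CPM (0.73 ± 0.07; edgeR adjusted p = 1.76e-07). These 3 hosts separated fully between treated and untreated DIS3-AID libraries.

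MIR3667HG and MIR4435-2HG were also among the hosts with the most counts. MIR3667HG held 81.7, 81.8 and 107 CPM in auxin-treated against 93.8, 77.9 and 96.6 CPM in untreated DIS3-AID cytoplasm (0.01; edgeR adjusted p = 0.958). MIR4435-2HG held 91.3, 90.2 and 85.5 CPM against 82.7, 89.4 and 86.5 CPM (0.05; edgeR adjusted p = 0.476). The treated and untreated libraries overlapped in both hosts and neither passed. MIR4435-2HG was called higher with library sizes alone, at 0.15 (edgeR adjusted p = 0.0193).

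Smaller called changes were found in 5 more hosts. MIRLET7BHG, the host of let-7b and let-7a, held 31.1, 32.7 and 37.8 CPM in auxin-treated against 20.9, 19.4 and 24.3 CPM in untreated DIS3-AID cells (0.65 ± 0.09). MIR9-1HG, host of a miR-9 copy known from neural development, held 7.63, 6.86 and 8.12 CPM against 5.33, 4.84 and 5.07 CPM (0.57 ± 0.09). MIR29B2CHG, whose miR-29 members repress collagen genes, held 5.68, 5.91 and 5.62 CPM against 3.96, 4.32 and 3.87 CPM (0.50 ± 0.08). All 3 rose, with edgeR adjusted p = 1.59e-05, 4.46e-05 and 9.02e-05. MIR3936HG at 0.39 and MIR924HG at 0.18 (edgeR adjusted p = 0.000621 and 0.0476) were the smallest called changes.

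The 14 hosts that were tested in the cytoplasm and not called included MIR17HG, host of the MYC-activated miR-17 cluster. It held 2.85, 2.46 and 2.05 CPM in auxin-treated against 2.01, 2.02 and 1.95 CPM in untreated DIS3-AID cells (0.30 ± 0.13; edgeR adjusted p = 0.084), and it was called at 0.43 without auxin replicate 3 (edgeR adjusted p = 0.0215), at 0.40 with library sizes alone (edgeR adjusted p = 0.0255) and at 0.30 with the replicate block (edgeR adjusted p = 0.0418). MIR210HG, host of the hypoxia-induced miR-210, held 0.0494, 0.227 and 0.145 CPM against 0.318, 0.145 and 0.135 CPM, and MIR22HG held 0.297, 0.146 and 0.157 CPM against 0.193, 0.182 and 0.121 CPM. Groups overlapped in MIR210HG and MIR22HG. The 11 hosts that did not pass the filter in the cytoplasm had at most 22 counts in any library there. They were tested only in the fit without that filter, at counts that limit what can be detected.

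On chromatin of DIS3-AID cells, 18 of the 43 hosts tested rose after auxin and none fell. The called differences ran from 0.17 to 1.59 and 2 were above a doubling. Over all 24966 features, 11% were called higher and 9.54% lower with a median of 0.00, against a median of 0.22 over the 43 hosts. Without the filter, 18 of the 48 hosts were called higher, against 2781 of 43129 features higher and 2606 lower. With library sizes alone the calls over all features were 2139 higher and 3351 lower in place of 2741 and 2382, and the hosts counted 15 higher and 1 lower. The lowest count of called hosts on leaving out a library was 12, without untreated DIS3-AID replicate 3.

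MIR378D2HG again had the largest change. It held 9.84, 10.1 and 8.83 CPM in auxin-treated against 3.28, 2.99 and 3.26 CPM in untreated DIS3-AID chromatin (1.59 ± 0.09; edgeR adjusted p = 1.2e-09). The control libraries held 3.59, 4.23 and 4.28 CPM with auxin and 3.69, 3.70 and 3.60 CPM without, so the treated DIS3-AID libraries stood above all others. MIR4733HG, at far fewer counts, held 0.275, 0.246 and 0.364 CPM against 0.167, 0.0827 and 0.132 CPM (1.18 ± 0.40; edgeR adjusted p = 0.0444). Its call was lost without any of the auxin replicates or without untreated replicate 2 or 3, at 0.94 to 1.27 (edgeR adjusted p from 0.0663 to 0.155), and under DESeq2 (adjusted p = 0.0581).

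MIR181A1HG, MIR1915HG, MIR762HG and MIR222HG followed. MIR181A1HG held 137, 165 and 193 CPM in auxin-treated against 99.8, 88.4 and 97.7 CPM in untreated DIS3-AID chromatin (0.79 ± 0.11; edgeR adjusted p = 9.32e-05). MIR1915HG (chr10:21492658-21497262, minus strand), annotated as protein-coding in GENCODE 29, held 2.37, 2.93 and 3.31 CPM against 1.69, 1.86 and 1.74 CPM (0.69 ± 0.14; edgeR adjusted p = 0.0012). MIR762HG held 13.5, 12.8 and 11.7 CPM against 7.76, 9.26 and 9.25 CPM (0.54 ± 0.08; edgeR adjusted p = 0.00011). None of these groups overlapped. MIR222HG held 696, 740 and 785 CPM against 496, 525 and 544 CPM (0.51 ± 0.06; edgeR adjusted p = 5.43e-06), and its control libraries, 488 to 534 CPM, overlapped the untreated DIS3-AID ones.

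**Figure D2:**
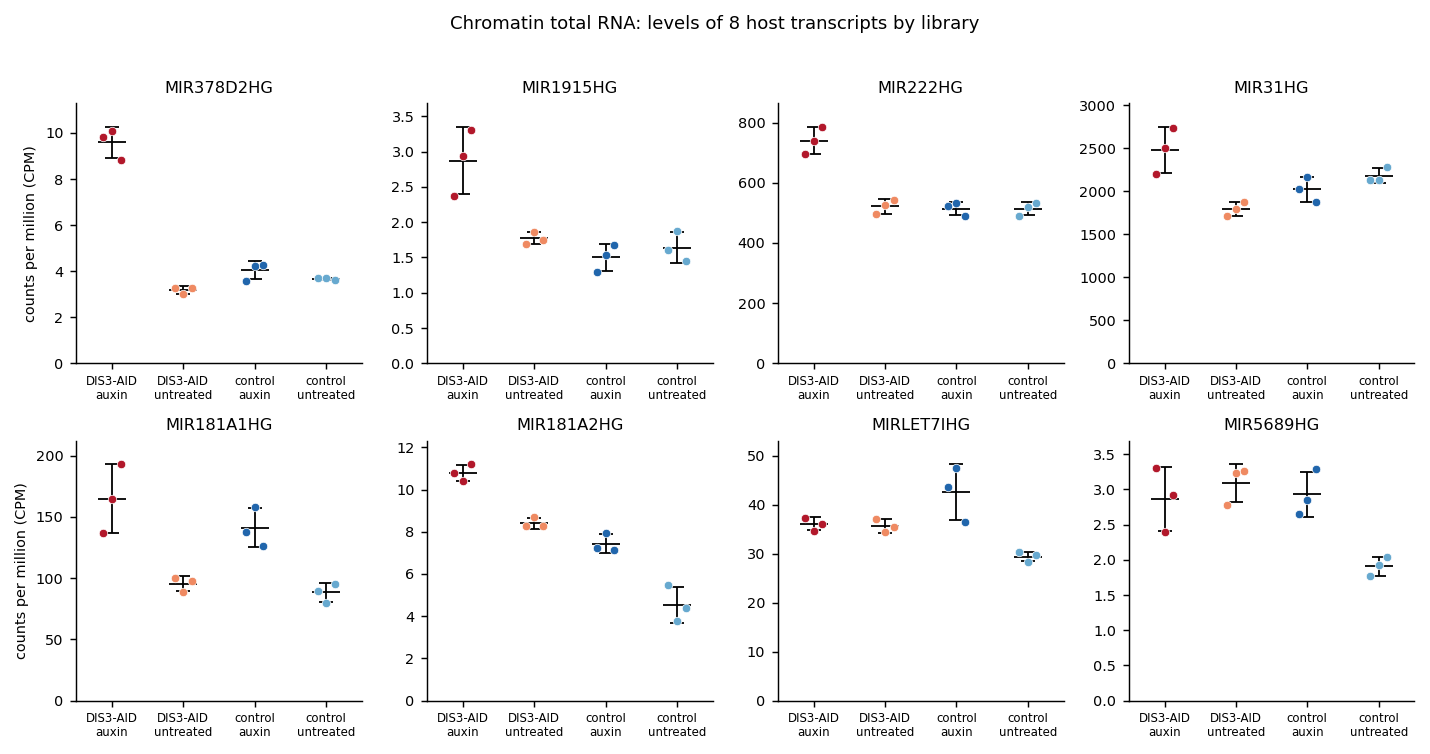
CPM of 8 hosts on chromatin, 1 panel per host, with points for libraries and bars for the mean ± SD of 3 libraries in DIS3-AID cells with auxin, DIS3-AID cells without, control cells with auxin and control cells without. MIR222HG at 696 to 785 CPM in auxin-treated DIS3-AID cells stands above its other groups, whereas MIRLET7IHG at 34.7 to 37.3 CPM and MIR5689HG at 2.40 to 3.30 CPM overlap the untreated DIS3-AID libraries.

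Among the most deeply counted hosts on chromatin, MIR31HG held 2198, 2504 and 2735 CPM in auxin-treated against 1718, 1791 and 1879 CPM in untreated DIS3-AID cells (0.46 ± 0.07; edgeR adjusted p = 0.000105). MIR3667HG held 1360, 1352 and 1456 CPM against 1204, 1200 and 1113 CPM, and MIR4435-2HG held 952, 1042 and 1053 CPM against 877, 862 and 834 CPM. Both differed by 0.24 ± 0.05 without overlap and were called higher (edgeR adjusted p = 0.00202 and 0.00158), while neither was called in the cytoplasm. MIR100HG, at 1134, 1212 and 1215 CPM against 1079, 1135 and 1161 CPM, overlapped and did not pass (0.08; edgeR adjusted p = 0.31).

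The remaining hosts called higher on chromatin were MIR29B2CHG at 0.40, MIRLET7A1HG at 0.40, MIR34AHG at 0.38, MIR181A2HG at 0.36, MIR4453HG at 0.36, MIR23AHG at 0.36, MIRLET7BHG at 0.23, MIR3659HG at 0.20 and MIR4713HG at 0.17 on the log2 scale. MIR29B2CHG held 109, 117 and 118 CPM in auxin-treated against 78.6, 90.4 and 91.1 CPM in untreated DIS3-AID cells, and MIR34AHG held 105, 103 and 99.6 CPM against 67.9, 88.3 and 79.9 CPM. MIR181A2HG held 10.8, 10.4 and 11.2 CPM against 8.26, 8.69 and 8.25 CPM, and MIRLET7BHG held 350, 351 and 358 CPM against 290, 304 and 307 CPM. In each of these the treated libraries lay above the untreated ones. The calls of MIR23AHG, MIR3659HG, MIR4453HG and MIRLET7A1HG each rested on 3 libraries. Without auxin replicate 1 or 2 or untreated replicate 3, MIR23AHG (8.78, 8.64 and 7.24 CPM against 6.84, 6.41 and 5.97 CPM) was at 0.30 to 0.31. Without auxin replicate 3 or untreated replicate 2 or 3, MIR3659HG was at 0.15 to 0.19 and MIRLET7A1HG (7.23, 7.47 and 8.95 CPM against 6.52, 5.65 and 5.73 CPM) at 0.29 to 0.37. Without auxin replicate 2 or untreated replicate 2 or 3, MIR4453HG was at 0.30 to 0.32, and over these 4 hosts the edgeR adjusted p ran from 0.0516 to 0.138.

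Several hosts that rose in the cytoplasm overlapped on chromatin. MIRLET7IHG held 37.3, 34.7 and 36.1 CPM in auxin-treated against 37.1, 34.4 and 35.5 CPM in untreated DIS3-AID chromatin (0.01; edgeR adjusted p = 0.923). MIR5689HG held 3.30, 2.40 and 2.92 CPM against 2.78, 3.24 and 3.26 CPM (-0.09; edgeR adjusted p = 0.667). MIR130AHG held 16.3, 14.4 and 13.9 CPM against 13.8, 14 and 13.5 CPM (0.11; edgeR adjusted p = 0.298). Values of 4 other known hosts overlapped too: MIR193BHG held 30.5, 27.5 and 25.9 CPM against 23.8, 28.9 and 27.2 CPM, MIR9-1HG 41.1, 40.7 and 38.3 CPM against 40.9, 41.6 and 38.2 CPM, MIR17HG 18.4, 19 and 21.7 CPM against 19.7, 13.2 and 16.9 CPM, and MIR200CHG 2.89, 3.42 and 3.58 CPM against 2.90, 2.45 and 2.68 CPM. MIR17HG was called at 0.39 without untreated replicate 1 (edgeR adjusted p = 0.0176) and MIR200CHG at 0.38 without auxin replicate 1 (edgeR adjusted p = 0.0309). The 5 hosts not tested on chromatin, MIR210HG and MIR22HG among them, had at most 19 counts in any library.

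In polyA RNA of DIS3-AID cytoplasm, 11 of the 30 hosts tested rose after auxin and none fell, with called differences from 0.28 to 3.25. Over all 16651 features, 13.2% were called higher and 3.88% lower with a median of -0.01, against 0.42 over the 30 hosts. Those calls were 2351 higher and 331 lower with library sizes alone, in place of 2190 and 646. Without the filter 12 of 46 hosts were called higher, against 3035 of 35510 features higher and 993 lower. MIR1915HG was not analysed here in polyA RNA.

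MIR378D2HG held 10.4, 10.5 and 11.7 CPM in auxin-treated against 1.28, 0.757 and 1.41 CPM in untreated DIS3-AID polyA RNA (3.25 ± 0.18; edgeR adjusted p = 4.06e-14). MIR4453HG held 7.32, 7.32 and 8.02 CPM against 1.81, 1.82 and 1.57 CPM (2.11 ± 0.16; edgeR adjusted p = 1.82e-11). MIRLET7IHG held 2.58, 2.73 and 2.56 CPM against 1.03, 1.24 and 1.30 CPM (1.14 ± 0.21; edgeR adjusted p = 0.000145). In these 3 hosts the treated DIS3-AID libraries also lay above all 6 control libraries, which ran from 0.411 to 1.04 CPM, from 1.62 to 2.54 CPM and from 0.521 to 0.964 CPM.

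Of the other large polyA changes, 3 were in hosts of low count. MIR3677HG held 0.919, 0.948 and 0.830 CPM in auxin-treated against 0.284, 0.275 and 0.196 CPM in untreated DIS3-AID polyA RNA (1.81 ± 0.37; edgeR adjusted p = 0.000526). MIR130AHG held 0.777, 0.759 and 0.867 CPM against 0.284, 0.344 and 0.157 CPM (1.58 ± 0.38; edgeR adjusted p = 0.00287). MIR181A2HG held 0.777, 0.455 and 0.614 CPM against 0.284, 0.103 and 0.314 CPM (1.41 ± 0.43; edgeR adjusted p = 0.019). The groups did not overlap in any of them. The MIR181A2HG call was lost without auxin replicate 1 or untreated replicate 2, at 1.03 to 1.19 (edgeR adjusted p from 0.125 to 0.135), and under DESeq2 (adjusted p = 0.0749).

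MIR222HG held 5.16, 5.20 and 3.97 CPM in auxin-treated against 2.38, 2.65 and 3.14 CPM in untreated DIS3-AID polyA RNA (0.81 ± 0.18), and MIR31HG held 16.5, 16.6 and 15.3 CPM against 8.78, 9.12 and 10.0 CPM (0.80 ± 0.09). MIRLET7BHG held 34.6, 36.6 and 33.3 CPM against 26.4, 24.7 and 26.9 CPM (0.42 ± 0.08), and MIR100HG held 81.2, 75.9 and 73.2 CPM against 59.7, 68.9 and 61.1 CPM (0.28 ± 0.06). MIR200CHG held 7.28, 6.83 and 7.55 CPM against 5.40, 4.89 and 5.38 CPM (0.47 ± 0.12). All 5 were called higher without overlap, with edgeR adjusted p from 9.42e-08 to 0.00356. MIR4435-2HG held 78.7, 83.7 and 73.7 CPM against 74.6, 78.2 and 71.4 CPM and MIR3667HG held 29.9, 28.1 and 31.1 CPM against 26.8, 24.4 and 28.9 CPM. Both overlapped and neither passed. MIR762HG at 0.46 (edgeR adjusted p = 0.0515) and MIR34AHG at 0.96 (edgeR adjusted p = 0.0622) missed the threshold, and both were called with library sizes alone, at 0.51 and 1.01. MIR762HG was also called without the filter on low counts (0.43; edgeR adjusted p = 0.00612), with the replicate block (0.45; edgeR adjusted p = 0.0288) and by DESeq2 (0.45; adjusted p = 0.0444), and MIR34AHG without untreated replicate 2 (1.27; edgeR adjusted p = 0.033). MIR5689HG held 0.495, 0.417 and 0.469 CPM against 0.178, 0.138 and 0.432 CPM (0.91; edgeR adjusted p = 0.189), and without untreated replicate 3 it was called at 1.52 (edgeR adjusted p = 0.0498).

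Other known hosts overlapped or stayed uncalled in polyA RNA. MIR17HG held 2.44, 1.97 and 3.03 CPM in auxin-treated against 1.95, 2.03 and 1.77 CPM in untreated DIS3-AID cells, MIR9-1HG 5.87, 7.09 and 6.82 CPM against 6.18, 5.65 and 4.99 CPM, and MIR23AHG 3.85, 2.09 and 2.35 CPM against 2.49, 2.2 and 1.81 CPM. MIR193BHG, at 2.01, 1.29 and 1.52 CPM against 1.03, 1.03 and 0.942 CPM, did not overlap and missed the threshold (0.68; edgeR adjusted p = 0.0828). MIR181A1HG at 0.247 to 0.455 CPM with auxin against 0.118 to 0.413 CPM without, MIR210HG at 0.212 to 0.607 against 0.462 to 0.628 CPM and MIRLET7A1HG at 0.181 to 0.247 against 0.0785 to 0.355 CPM overlapped. Apart from MIR1915HG, which was not analysed there, the 17 hosts not tested in polyA RNA had at most 18 counts in any library, MIR22HG and MIR29B2CHG among them.

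**Figure D3:**
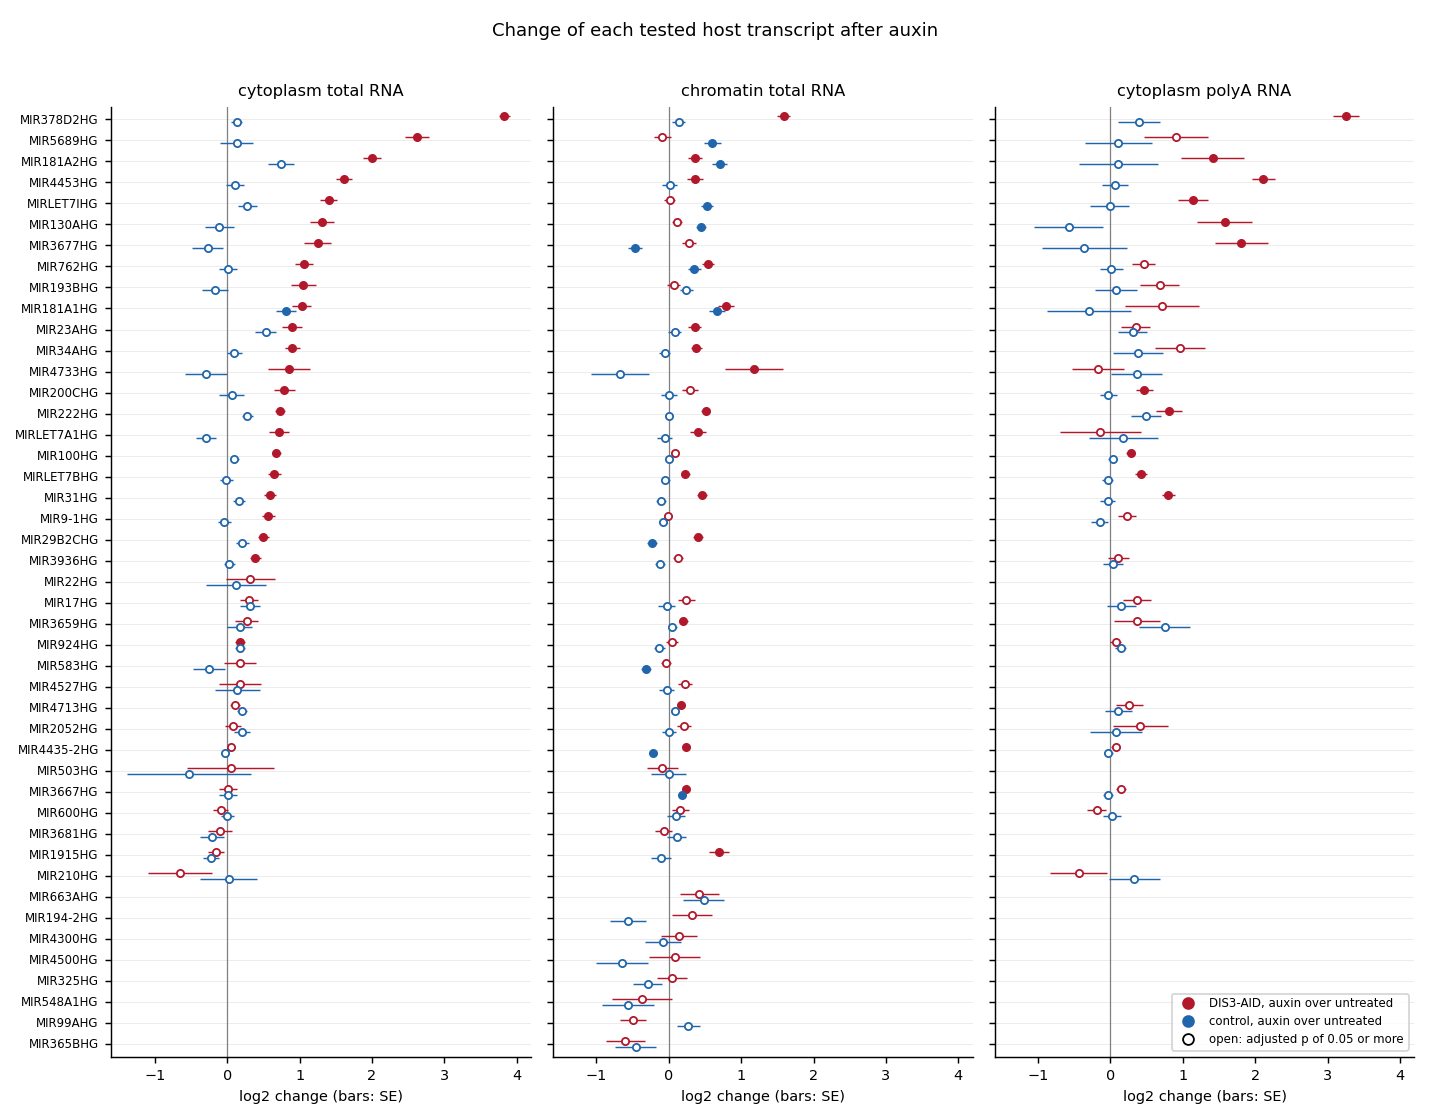
Log2 difference of auxin-treated minus untreated cells, ± SE, for each host tested, in cytoplasm total RNA, on chromatin and in polyA RNA. Red points are DIS3-AID cells and blue points control cells, and filled points passed an adjusted p of 0.05. The DIS3-AID points of MIR378D2HG lie at 3.83, 1.59 and 3.25, and no host has a filled red point below 0.

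Taken by preparation, 6 hosts were called higher in all 3: MIR378D2HG, MIR4453HG, MIR181A2HG, MIR222HG, MIR31HG and MIRLET7BHG. In the cytoplasm and on chromatin but not in polyA RNA, 7 were called: MIR181A1HG, MIR23AHG, MIR29B2CHG, MIR34AHG, MIR4733HG, MIR762HG and MIRLET7A1HG. In both cytoplasmic preparations but not on chromatin, 5 were called: MIR100HG, MIR130AHG, MIR200CHG, MIR3677HG and MIRLET7IHG. In the cytoplasm total RNA alone, 5 were called: MIR193BHG, MIR3936HG, MIR5689HG, MIR9-1HG and MIR924HG. On chromatin alone, 5 were called: MIR1915HG, MIR3659HG, MIR3667HG, MIR4435-2HG and MIR4713HG. Of the rest, 17 were tested in at least 1 preparation without a call, and MIR2117HG, MIR4280HG and MIR497HG were tested in none. MIR29B2CHG and MIR1915HG were not tested in polyA RNA. All features were not counted by combination, so these counts have no share beside them. A call in 1 preparation and not in another does not show a difference between them, and that difference was tested on its own.

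The chromatin minus the cytoplasm response to auxin in DIS3-AID cells was called for 15 of 48 hosts, 11 lower and 4 higher. Over all 27418 features 22.1% were called higher and 11% lower, with a median of 0.16 over all features and -0.07 over the hosts. MIR5689HG responded less on chromatin by 2.53 ± 0.22 log2 units (-2.53; edgeR adjusted p = 5.4e-12), MIR378D2HG by 2.06 (-2.06; edgeR adjusted p = 5.75e-16) and MIR181A2HG by 1.45 (-1.45; edgeR adjusted p = 1.86e-08). Differences of -1.20 for MIRLET7IHG, -1.08 for MIR4453HG, -1.02 for MIR130AHG, -0.81 for MIR3677HG, -0.80 for MIR193BHG, -0.42 for MIR100HG, -0.40 for MIR9-1HG and -0.34 for MIR34AHG also passed. The call of MIR34AHG was lost on leaving out any of 7 of the 12 libraries, at -0.35 to -0.24. These were replicates 2 and 3 of both DIS3-AID groups on chromatin, and auxin replicate 3 and untreated replicates 1 and 2 in the cytoplasm.

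MIR1915HG responded more on chromatin, by 1.03 ± 0.17 (edgeR adjusted p = 8.56e-06). In the cytoplasm it held 6.18, 6.27 and 6.18 CPM in auxin-treated against 6.76, 6.22 and 7.82 CPM in untreated DIS3-AID cells, which overlapped. MIR600HG at 0.43, MIR3667HG at 0.41 and MIR4435-2HG at 0.38 were the others called higher. This difference depends on how the fractions are scaled to each other. With library sizes alone the median over all features was -0.17 in place of 0.16 and their calls were 379 higher and 5520 lower in place of 6051 and 3029, and the hosts counted 1 higher and 18 lower. MIR3667HG at 0.08 and MIR4435-2HG at 0.05 were then no longer called.

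**Figure D4:**
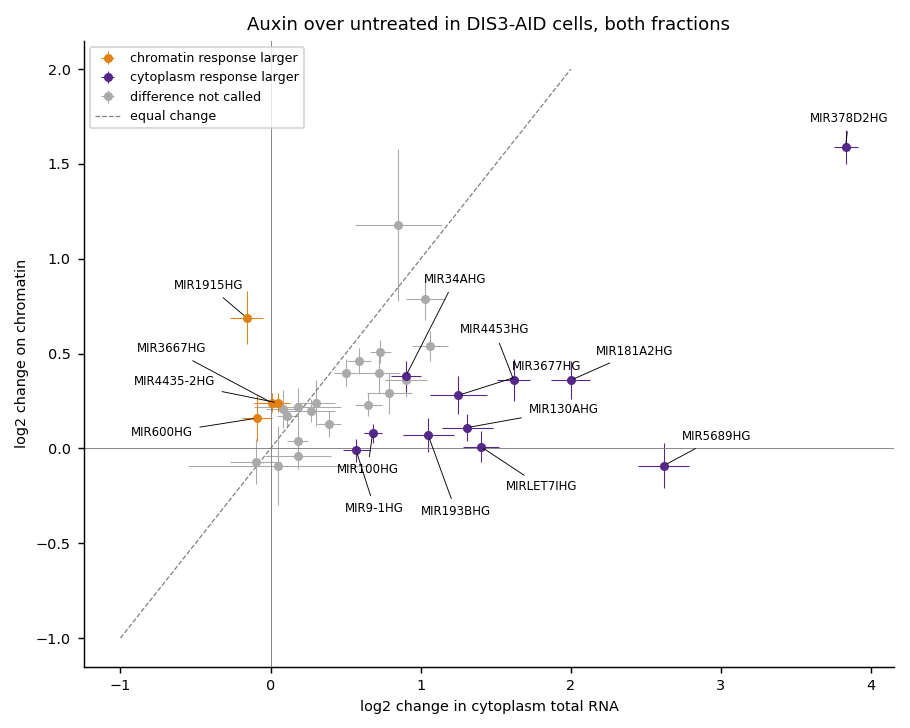
Log2 difference after auxin in DIS3-AID cells on chromatin (vertical axis) against that in cytoplasm total RNA (horizontal axis) for the 35 hosts tested in both, coloured by whether the difference between them was called; the dashed line marks equal changes. MIR378D2HG (3.83 in the cytoplasm, 1.59 on chromatin) and MIR5689HG (2.62 and -0.09) lie far below the line and MIR1915HG (-0.16 and 0.69) above it.

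The polyA minus the total RNA response of the cytoplasm was called for 3 of 36 hosts, against 8.29% of 18669 features, 5.29% higher and 3% lower. MIR4453HG responded more in polyA RNA, by 0.62 (edgeR adjusted p = 0.0461), and MIR5689HG at -1.57 and MIR100HG at -0.27 responded less (edgeR adjusted p = 0.0339 and 0.0461). Libraries of the same condition and number deviated together here, and with those pairs as a block 7 hosts were called, 4 higher and 3 lower. With that block 4803 of the 18669 features were called higher and 841 lower. With library sizes alone the calls over all features went to 72 higher and 737 lower, in place of 987 and 561, and the hosts to 2, both lower. Without auxin-treated total RNA replicate 2 no host was called, and without untreated total RNA replicate 2 there was 1. The call of MIR4453HG was lost without any of 11 of the 12 libraries, all but untreated total RNA replicate 3, at 0.29 to 0.62. MIR100HG was lost at -0.26 to -0.23 without auxin-treated total RNA replicate 1 or 2 or untreated total RNA replicate 1 or 3. MIR5689HG was lost at -1.53 to -1.22 without replicate 2 of either total RNA group or untreated polyA replicate 3.

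Auxin alone was read in the control line. In control cytoplasm 1 of 37 hosts was called, MIR181A1HG, at 2.34, 2.07 and 2.38 CPM with auxin against 1.36, 1.16 and 1.35 CPM without (0.81 ± 0.14; edgeR adjusted p = 0.0432). Over all features 0.0478% were called there, 0.0217% higher and 0.0261% lower. The call of MIR181A1HG was lost on leaving out any of the 6 libraries, at 0.74 to 0.89 (edgeR adjusted p from 0.0592 to 0.297), although its groups did not overlap. In control polyA RNA 0 of 30 hosts were called by edgeR and 0 by DESeq2, 2 had an unadjusted p below 0.05, and 0.048% of all features were called, 0.012% higher and 0.036% lower.

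On control chromatin 11 of 43 hosts were called after auxin, 7 higher and 4 lower, against 9.02% of all features higher and 7.97% lower. MIR181A2HG held 7.21, 7.96 and 7.13 CPM with auxin against 5.46, 3.77 and 4.37 CPM without (0.70 ± 0.10), and MIR181A1HG held 138, 158 and 126 CPM against 89.5, 80.0 and 95.4 CPM (0.67 ± 0.11). MIR5689HG held 2.65, 2.85 and 3.29 CPM against 1.77, 1.93 and 2.04 CPM (0.60 ± 0.12), and MIRLET7IHG held 43.7, 47.6 and 36.4 CPM against 30.3, 28.4 and 29.7 CPM (0.53 ± 0.08). In these 4 hosts no control library with auxin overlapped those without, and edgeR adjusted p ran from 0.000123 to 0.00242. MIR130AHG at 0.44, MIR762HG at 0.35 and MIR3667HG at 0.18 were also higher, and MIR3677HG at -0.47, MIR583HG at -0.32, MIR29B2CHG at -0.23 and MIR4435-2HG at -0.22 lower. Without control auxin replicate 2 or control untreated replicate 1 or 2 the MIR3667HG call was lost at 0.16 to 0.18. Without control auxin replicate 1 or 2 or control untreated replicate 1 or 3 the MIR29B2CHG call was lost at -0.23 to -0.18. MIR181A1HG, MIR181A2HG, MIR762HG and MIR3667HG were called higher by auxin on chromatin of both lines.

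The auxin response of DIS3-AID cells minus that of control cells sets the 2 lines against each other. In the cytoplasm 18 of 37 hosts were called higher and 0 lower, against 16.1% and 3.31% of all features, or 3696 higher and 763 lower. Those were 4079 and 237 with library sizes alone. The largest differences were 3.70 ± 0.11 for MIR378D2HG, 2.49 ± 0.30 for MIR5689HG, 1.53 ± 0.29 for MIR3677HG, 1.51 ± 0.16 for MIR4453HG, 1.41 ± 0.26 for MIR130AHG and 1.26 ± 0.23 for MIR181A2HG, with edgeR adjusted p from 1.59e-13 to 0.000511. This difference did not pass for MIR4733HG at 1.13, MIR23AHG at 0.37, MIR29B2CHG at 0.29, MIR181A1HG at 0.22 and MIR924HG at 0.00, with edgeR adjusted p from 0.063 to 0.999; their responses in DIS3-AID cells alone were called higher. MIR200CHG at 0.73 was lost at 0.49 to 0.75 without DIS3-AID auxin replicate 3, DIS3-AID untreated replicate 1, control auxin replicate 1 or 2, or control untreated replicate 2.

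On chromatin 15 of 43 hosts were called for this difference, 11 higher and 4 lower, against 8.54% and 9.2% of all features. With library sizes alone the features went to 1513 higher and 3193 lower, in place of 2131 and 2298, and the hosts to 9 higher and 4 lower. MIR4733HG at 1.85 ± 0.56 (edgeR adjusted p = 0.0293) was called higher, and the call was lost at 1.35 to 1.87 (edgeR adjusted p from 0.0531 to 0.104) without DIS3-AID auxin replicate 3, DIS3-AID untreated replicate 2 or 3, control auxin replicate 1 or 2, or control untreated replicate 1. MIR378D2HG at 1.45 ± 0.13, MIR1915HG at 0.80 ± 0.20, MIR3677HG at 0.74 ± 0.14, MIR29B2CHG at 0.63 ± 0.10, MIR31HG at 0.57 ± 0.10 and MIR222HG at 0.51 ± 0.08 were called higher, as were MIR4435-2HG at 0.47, MIRLET7A1HG at 0.46, MIR34AHG at 0.45 and MIRLET7BHG at 0.28. MIR99AHG at -0.77, MIR5689HG at -0.69, MIRLET7IHG at -0.52 and MIR130AHG at -0.33 were called lower, with edgeR adjusted p = 0.0349, 0.00955, 0.00248 and 0.0285. For MIR5689HG, MIRLET7IHG and MIR130AHG it was the control line in which chromatin levels rose after auxin. The MIR130AHG call was lost at -0.32 to -0.29 without DIS3-AID auxin replicate 2 or 3, DIS3-AID untreated replicate 2 or control untreated replicate 3.

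In polyA RNA 6 of 30 hosts were called higher for this difference, against 5.84% of all features called, 4.85% higher and 0.985% lower: MIR378D2HG at 2.86, MIR130AHG at 2.15, MIR4453HG at 2.05, MIRLET7IHG at 1.15, MIR31HG at 0.84 and MIRLET7BHG at 0.46. Without DIS3-AID auxin replicate 2 the count was 3. The calls of MIR130AHG, at 1.86 to 2.2, and of MIRLET7IHG, at 0.97 to 1.20, were each lost without any of 10 of the 12 libraries. MIR130AHG kept its call without DIS3-AID untreated replicate 2 or control untreated replicate 3, and MIRLET7IHG without control auxin replicate 1 or control untreated replicate 2. Under DESeq2 both calls were lost (adjusted p = 0.0705 and 0.0789), and the MIRLET7IHG call also without the filter on low counts (edgeR adjusted p = 0.0532). The call of MIRLET7BHG was lost at 0.40 to 0.43 without DIS3-AID auxin replicate 2, DIS3-AID untreated replicate 2 or control untreated replicate 3.

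The untreated lines also differed. In the cytoplasm 12 of 37 hosts were higher in DIS3-AID than in control cells and 1 lower, against 9.67% and 12.4% of all features. MIR181A2HG held 0.591, 0.763 and 0.634 CPM in untreated DIS3-AID against 0.327, 0.289 and 0.334 CPM in untreated control cytoplasm (1.06 ± 0.18; edgeR adjusted p = 0.000329). MIR222HG held 24, 30.2 and 27.8 CPM against 15.1, 15.3 and 17.3 CPM (0.78 ± 0.08; edgeR adjusted p = 9.18e-07), and MIR181A1HG held 1.81, 2.41 and 2.40 CPM against 1.36, 1.16 and 1.35 CPM (0.77 ± 0.14; edgeR adjusted p = 0.000772). These groups did not overlap. MIR3659HG held 3.23, 2.49 and 2.48 CPM against 1.92, 1.63 and 1.67 CPM (0.65; edgeR adjusted p = 0.00838), and without DIS3-AID untreated replicate 1 it was lost at 0.52 (edgeR adjusted p = 0.0655). MIR378D2HG was higher by 0.58, and MIRLET7IHG at 0.46 was lost at 0.36 to 0.38 without untreated replicate 2 of either line. MIR600HG was the host called lower, at -0.51.

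On chromatin of untreated cells 10 of 43 hosts were higher in DIS3-AID than in control cells and 8 lower, against 15.2% and 17.4% of all features, or 3785 and 4335. They were 4788 and 3359 with library sizes alone, and the hosts 11 higher and 7 lower. MIR503HG held 0.657, 0.937 and 0.757 CPM in untreated DIS3-AID against 0.259, 0.401 and 0.327 CPM in untreated control cells (1.29 ± 0.23). MIR181A2HG held 8.26, 8.69 and 8.25 CPM against 5.46, 3.77 and 4.37 CPM (0.87 ± 0.10). MIR762HG held 7.76, 9.26 and 9.25 CPM against 4.74, 5.15 and 4.93 CPM (0.83 ± 0.08). MIR5689HG, at 2.78, 3.24 and 3.26 CPM against 1.77, 1.93 and 2.04 CPM (0.69 ± 0.12), likewise had no overlap, and edgeR adjusted p over these 4 ran from 9.17e-07 to 0.000308. The lower hosts ran from MIR2052HG at -0.51 to MIRLET7BHG at -0.17, and the MIRLET7BHG call was lost at -0.18 to -0.14 without any DIS3-AID untreated replicate or without control untreated replicate 2 or 3. MIR3659HG at 0.21 was lost at 0.17 to 0.19 without DIS3-AID untreated replicate 1 or control untreated replicate 2.

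In polyA RNA of untreated cells 2 of 30 hosts were called, against 6.22% of all features higher and 5.65% lower. MIR4435-2HG held 74.6, 78.2 and 71.4 CPM in DIS3-AID against 67.3, 61.4 and 63.5 CPM in control cells (0.22; edgeR adjusted p = 0.0115), and MIR100HG held 59.7, 68.9 and 61.1 CPM against 73.0, 73.4 and 69.4 CPM (-0.18; edgeR adjusted p = 0.0408). Neither had overlapping groups. Both calls were lost without control untreated replicate 2. MIR4435-2HG was lost at 0.18 to 0.21 also without DIS3-AID untreated replicate 1 or 2 or control untreated replicate 3, and MIR100HG at -0.18 to -0.16 also without DIS3-AID untreated replicate 1 or 3 or control untreated replicate 1.

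Before any treatment most hosts were weighted to chromatin. In untreated control cells 40 of 48 were higher on chromatin than in the cytoplasm and 7 lower, with a median log2 ratio of 3.12. Of all 27418 features 46.2% were higher and 44% lower, with a median of 0.10. The rule of 100 counts summed both fractions, so a host could enter through chromatin alone. MIR663AHG, for example, held 31 counts in cytoplasm total RNA and 1101 on chromatin. The part of that rule in the hosts' count and median was not tested. With library sizes alone the median over all features was 0.76, its calls were 15260 higher and 9554 lower in place of 12665 and 12066, and 41 hosts were higher and 4 lower. MIR181A1HG held 89.5, 80.0 and 95.4 CPM on chromatin against 1.36, 1.16 and 1.35 CPM in the cytoplasm, and MIR1915HG held 1.60, 1.88 and 1.45 CPM against 6.60, 6.90 and 7.17 CPM. These CPM were scaled within each preparation, whereas the log2 ratios come from a fit that scaled both together. The highest ratios with counts in both fractions were 5.46 ± 0.15 for MIR181A1HG, 4.93 for MIR31HG, 4.66 for MIR4713HG, 4.60 for MIR583HG, 4.58 for MIR924HG, 4.50 for MIR34AHG and 4.38 for MIR222HG. MIR365BHG had no cytoplasmic count against 99 on chromatin, so it was at least 21.3-fold higher on chromatin, taking a floor of 3 counts over the group on the scale of that joint fit; with it at this bound the hosts' median was again 3.12.

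The hosts lower on chromatin were MIR1915HG at -2.74 ± 0.12, MIR22HG at -2.55, MIR210HG at -2.33, MIR3681HG at -1.21, MIR4733HG at -1.14, MIR600HG at -0.61 and MIR378D2HG at -0.32. MIR378D2HG turned to 0.35 with library sizes alone (edgeR adjusted p = 0.000529) and was not called without control untreated cytoplasm replicate 1 (-0.19; edgeR adjusted p = 0.0785). MIR4733HG was not called with library sizes alone, at -0.48. MIR2117HG at -0.27 was the host not called in either direction.

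**Figure D5:**
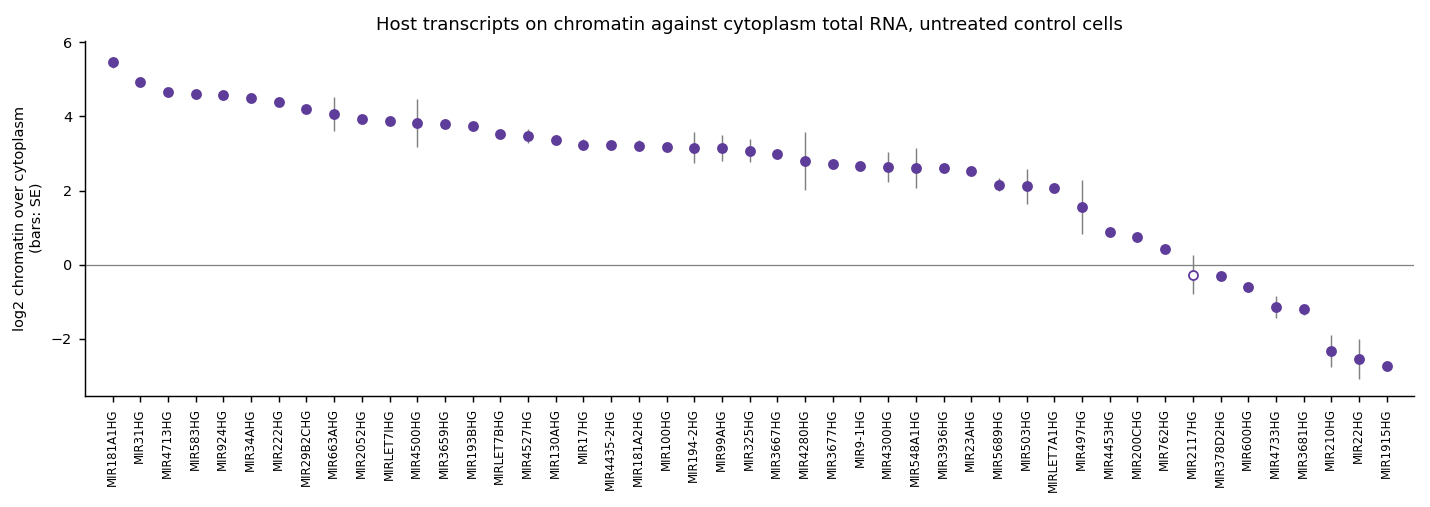
Log2 ratio of chromatin over cytoplasm in untreated control cells, ± SE, for 47 hosts in order of the ratio; MIR365BHG, without a cytoplasmic count, is left out. Filled points passed an adjusted p of 0.05 and the open point is MIR2117HG at -0.27. The ratios run from 5.46 for MIR181A1HG to -2.74 for MIR1915HG.

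Across the hosts, the auxin difference in DIS3-AID cytoplasm went with that in polyA RNA (Pearson r = 0.84, Spearman rho = 0.81 over 30 hosts) more closely than with that on chromatin (0.46 and 0.27 over 35 hosts). With the log10 span of the host it gave -0.34 and -0.33, and with the ratio of chromatin over cytoplasm 0.05 and 0.09, over 37 hosts each. These correlations are descriptions over genes that share their libraries. The median span was 25064 bases over the 23 hosts called higher in the cytoplasm and 118558 bases over the 14 tested and not called. Hosts under 10 kb were 6 of the 23 and 6 of the 14. On chromatin the medians of called and uncalled hosts were 45530 and 58632 bases, and in polyA RNA 19462 and 29679 bases. Together the 48 hosts took 0.0699 to 0.0736% of counts in auxin-treated against 0.0454 to 0.0474% in untreated DIS3-AID cytoplasm, with 0.0412 to 0.0423% in auxin-treated and 0.0386 to 0.0404% in untreated control cytoplasm.

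Some hosts share ground with other genes, and the counting strand is not given in the sources used here. Exons of 17 hosts overlap a gene that is not a miRNA on the opposite strand and 6 on the same strand. LNCTAM34A, opposite MIR34AHG, differed by 0.02 in DIS3-AID cytoplasm after auxin and was higher by 0.65 on chromatin (edgeR adjusted p = 8.73e-05). PRR34, opposite MIRLET7BHG, and BLID, on the strand of MIR100HG, were higher in the cytoplasm by 0.61 and 0.40 (edgeR adjusted p = 0.00253 and 0.0461), and ZSWIM4, opposite MIR23AHG, was lower (-0.41; edgeR adjusted p = 0.0163). LINC02603, opposite MIRLET7A1HG, covers 78.7% of the exon bases of that host. It was not tested in the cytoplasm and did not pass on chromatin (-0.54, edgeR adjusted p = 0.169). Hairpin genes inside the hosts were mostly too thinly counted: 6 were tested in the cytoplasm and 32 on chromatin. MIR221 and MIR4453 were higher in the cytoplasm, by 1.03 and 2.13 (edgeR adjusted p = 0.0371 and 0.000231), and MIR221 and MIR4763 on chromatin, by 0.34 and 0.62 (edgeR adjusted p = 0.0112 and 0.00476). In polyA RNA 2 were tested and MIR4453 was higher, by 2.06 (edgeR adjusted p = 0.00758). MIR4453 covers 89 bases of its host and held 314 counts against 5167 for the host. Whether such counts are hairpins or reads of the host cannot be told apart.

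A further 17 transcripts were listed as miRNA hosts under other names, which was not checked here. NEAT1 and KCNQ1OT1 are on this list and also served as nuclear RNAs above. Of the list, 14 symbols (15 features) were tested in DIS3-AID cytoplasm after auxin. There 11 features were higher and none lower, with a median of 0.49, against 21.1% and 13.2% of all features. MIAT differed by 2.18, the 2 LINC-PINT features by 1.79 and 1.66, LINC01138 by 1.54 and MEG8 by 1.42, while H19 at -0.31 did not pass. On chromatin 8 of 15 features were higher and in polyA RNA 4 of 14, with medians of 0.23 and 0.19. Of all features 11% and 13.2% were higher there. Of 21 factors of miRNA biogenesis in the cytoplasm 0 were higher and 2 lower, AGO1 and SRRT at -0.14 each, with a median of -0.09, against 21.1% of all features higher and 13.2% lower. On chromatin DIS3L2, which degrades uridylated let-7 precursors, was higher by 0.15 and 5 of the 21 factors were lower, from AGO4 at -0.44 to SRRT at -0.17, with a median of -0.04, against 11% of all features higher and 9.54% lower. In polyA RNA DDX5 alone of 19 was higher, by 0.14, and 0 were lower, against 13.2% and 3.88% of all features.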

How the data were processed

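The deposited tables hold raw counts per feature, 1 table per library; per the submitters' processing notes the tools were featureCounts 2.0.0, STAR 2.7.3a and Cufflinks 2.2.1, on hg38, and the counting strand is not given in the sources used here. Symbols came from a current name table matched by Ensembl ID, positions from GENCODE 29 (all 48 hosts found there) and mature sequences from RefSeq (GRCh38.p14). The hosts, gene lists and tests were chosen with earlier results of these data known.

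From the deposited counts, each preparation was filtered (filterByExpr, minimum count 10), scaled by TMM and fitted over its 4 groups in edgeR 4.0.16 with robust quasi-likelihood tests and Benjamini-Hochberg adjustment over all features, in R 4.3.3. Comparisons between preparations used 2 joint fits, with TMM factors from 0.746 to 1.263 for chromatin with cytoplasm. The scripts were tested on simulated data. Alternatives were other scaling (RLE, library sizes alone), no filter, DESeq2 1.42.0, a replicate block and leaving out each library. CPM are counts per 1 M of the scaled library.

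Values in every library are given, for the groups compared, for the 8 (cytoplasm), 6 (chromatin) and 6 (polyA) hosts with the largest called changes, up to 4 called for auxin in control cells or between lines, the 4 with the highest mean CPM and a list of hosts of well-known miRNAs, some of these by their range where uncalled. Same-numbered libraries were checked for shared deviations from their group means. Only the polyA and total RNA libraries of 1 condition passed, with r from 0.294 to 0.55 in all 6 pairs, above the 0.1 required. Within each group no library duplicated another: replicates differed by a chi-square of at least 2.61 per degree of freedom. Libraries of different groups were not compared in this way.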

Additional observations from a re-analysis of the deposited data

Results flagged for a closer look

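Each value here is a difference between the responses to auxin of 2 settings that passed its own test (edgeR's quasi-likelihood test, Benjamini-Hochberg adjusted p below 0.05). No explanation was tested.

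In the cytoplasm the response of DIS3-AID cells minus that of control cells was called for 18 of 37 hosts, against 19.4% of all features. It was 3.70 for MIR378D2HG, 2.49 for MIR5689HG, 1.53 for MIR3677HG, 1.51 for MIR4453HG, 1.41 for MIR130AHG, 1.26 for MIR181A2HG, 1.22 for MIR193BHG, 1.12 for MIRLET7IHG, 1.05 for MIR762HG and 1.00 for MIRLET7A1HG. It was 0.80 for MIR34AHG, 0.73 for MIR200CHG, 0.67 for MIRLET7BHG, 0.61 for MIR9-1HG, 0.57 for MIR100HG, 0.44 for MIR222HG, 0.43 for MIR31HG and 0.36 for MIR3936HG. The call of MIR200CHG was lost without any of 5 of the 12 libraries, at 0.49 to 0.75.

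On chromatin the same difference was called for 15 of 43 hosts, against 17.7% of all features. It was 1.85 for MIR4733HG, 1.45 for MIR378D2HG, 0.80 for MIR1915HG, 0.74 for MIR3677HG, 0.63 for MIR29B2CHG, 0.57 for MIR31HG, 0.51 for MIR222HG, 0.47 for MIR4435-2HG, 0.46 for MIRLET7A1HG, 0.45 for MIR34AHG and 0.28 for MIRLET7BHG. It was negative for MIR99AHG (-0.77), MIR5689HG (-0.69), MIRLET7IHG (-0.52) and MIR130AHG (-0.33). The calls of MIR4733HG, MIRLET7A1HG and MIRLET7BHG were lost without any of 6, 9 and 7 of the 12 libraries, at 1.35 to 1.87, 0.34 to 0.49 and 0.23 to 0.28. That of MIR130AHG was lost without any of 4, at -0.32 to -0.29.

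In polyA RNA it was called for 6 of 30 hosts, against 5.84% of all features. It was 2.86 for MIR378D2HG, 2.15 for MIR130AHG, 2.05 for MIR4453HG, 1.15 for MIRLET7IHG, 0.84 for MIR31HG and 0.46 for MIRLET7BHG. The calls of MIR130AHG and MIRLET7IHG were each lost without any of 10 of the 12 libraries and under DESeq2 (adjusted p = 0.0705 and 0.0789). The call of MIRLET7BHG was lost without any of 3 libraries.

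The chromatin minus the cytoplasm response in DIS3-AID cells was called for 15 of 48 hosts (31.2%), against 33.1% of all features. It was 1.03 for MIR1915HG, 0.43 for MIR600HG, 0.41 for MIR3667HG and 0.38 for MIR4435-2HG. It was -2.53 for MIR5689HG, -2.06 for MIR378D2HG, -1.45 for MIR181A2HG, -1.20 for MIRLET7IHG, -1.08 for MIR4453HG, -1.02 for MIR130AHG, -0.81 for MIR3677HG, -0.80 for MIR193BHG, -0.42 for MIR100HG, -0.40 for MIR9-1HG and -0.34 for MIR34AHG. The call of MIR34AHG was lost without any of 7 of the 12 libraries, at -0.35 to -0.24. The polyA minus the total RNA response was called for 3 of 36 hosts (8.33%), against 8.29% of all features. It was 0.62 for MIR4453HG, -0.27 for MIR100HG and -1.57 for MIR5689HG. These calls were lost without any of 11, 4 and 3 of the 12 libraries.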

How the results depend on the processing

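Over the alternatives run, 2347 values of single hosts kept their direction and side of the threshold, 158 lost their call, 14 gained one and 19 changed sign. Depth limits the hosts of few counts.

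The count of hosts called after auxin in control cytoplasm was 1, and it was 0 with RLE size factors, 2 without the filter and 0 to 0 on leaving out each library. Between untreated lines in polyA RNA the count of 2 ran from 0 to 2 on leaving out each library, and for the polyA difference between the lines' responses the count of 6 ran from 3 to 5. The polyA minus total RNA count of 3 was 5 without the filter, 7 with pairs as a replicate block within each condition (chosen after seeing the data) and 0 to 4 on leaving out each library. Over all features that comparison called 1070 lower and 64 higher without the filter. With those pairs as a block it called 841 lower and 4803 higher.

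With the replicate number as a replicate block in all groups, 24 of 37 hosts were called after auxin in DIS3-AID cytoplasm. On chromatin 18 of 43 were called and in polyA RNA 12 of 30. Features called were 4976 higher and 4257 lower of 23027, 2465 and 2134 of 24966, and 2211 and 811 of 16651. In control cells the hosts called were 1, 11 and 0, against 22 features higher and 40 lower, 1885 and 1660, and 9 and 15. Between untreated lines the hosts called were 15, 19 and 3, against 2476 features higher and 3484 lower, 3440 and 3987, and 1192 and 1104. For the difference between the lines' responses the hosts called were 18, 14 and 6. Features called for it were 3810 higher and 1300 lower, 1794 and 1995, and 832 and 242. For chromatin against cytoplasm 47 of 48 hosts were called, against 12664 of 27418 features higher and 12055 lower. For chromatin minus cytoplasm 16 of 48 were called, against 6368 features higher and 3040 lower. For polyA minus total RNA 3 of 36 were called, against 2715 of 18669 features higher and 730 lower. Outside the polyA and total RNA pairs the samples share only a number. In control polyA RNA every sample correlated best with its own number, a hint from the data and not the design (r from 0.064 to 0.157 over 3 pairs).

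DIS3 on chromatin of DIS3-AID cells differed after auxin by 0.01, by -0.05 with library sizes alone, by -0.01 without the filter and by -0.08 to 0.09 on leaving out each library. In the cytoplasm it differed by -0.13, by the same -0.13 with the replicate block (edgeR adjusted p = 0.0399) and by -0.15 to -0.08 on leaving out each library.

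Leaving out each library in turn changed the sign of hosts that were not called. In the cytoplasm MIR22HG ran from -0.13 to 0.49, MIR3667HG from -0.12 to 0.11 and MIR503HG from -0.29 to 1.14. On chromatin MIR193BHG ran from -0.01 to 0.14, MIR503HG from -0.25 to 0.11, MIR5689HG from -0.21 to 0.01, MIR9-1HG from -0.04 to 0.02 and MIRLET7IHG from -0.01 to 0.04, with -0.03 with library sizes alone. In polyA RNA MIR4733HG ran from -0.37 to 0.07 and MIRLET7A1HG from -0.53 to 0.24. The ratio of chromatin over cytoplasm of MIR378D2HG, called at -0.32, was 0.35 with library sizes alone. The cause was not tested.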
